A study of Mus musculus with 62 samples.

Results

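The neuronal immediate early genes described here are Fos, Fosb, Junb, Egr1, Egr2, Egr4, Arc, Npas4, Nr4a1 and Ier2. They were taken as a list of 10 mouse genes by Entrez identifier, out of 18821 genes listed in at least 1 of the count tables. The rule itself used no measured value, but the list was chosen with earlier results of these data known. All 10 were listed in each tissue. The filter on low counts kept all 10 in both brain regions and 5 in liver (Fos, Junb, Egr1, Nr4a1 and Ier2).

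RNA sequencing counts came from 62 libraries of prefrontal cortex, striatum and liver of C57BL/6 females (C57BL/6 is an inbred mouse strain). Animals were dosed orally with the MARBLES mixture of polychlorinated biphenyls (PCBs), which are persistent industrial chemicals, and controls were given the vehicle alone. Doses were 0 (vehicle), 0.1, 1 and 6 mg/kg, with 4, 5, 6 and 6 libraries in that order for each brain region, taken as tissue punches, and 4, 4, 6 and 6 for liver. The age of the mice, the length of dosing and the interval between the last dose and tissue collection are not given in the sources used here. Each title carries an animal number that recurs across tissues within a dose group, and the same number was taken as the same mouse. Nothing else in the labels states that the libraries of a group came from separate animals, so the p-values measure the spread between these libraries.

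Immediate early genes are switched on within minutes of synaptic or growth factor stimulation, without the need for new protein. Calcium and kinase signals reach factors already bound at their promoters, among them CREB at cyclic AMP response elements and serum response factor at CArG boxes. The transcripts are short-lived, so their level in brain tissue is widely read as a trace of recent neuronal activity. Most of their products are transcription factors that act on later genes, whereas the Arc protein acts at the synapse.

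The promoter sequences of the genes on which the results turn are shown because the members moved together. Each is the 250 bases before a transcription start, read 5′ to 3′ on the strand of the gene, from RefSeq on build GRCm38.p6, and 7 of the 10 members had an entry (Arc, Egr1 and Ier2 had none). Capitals mark TGACG, the core of the cyclic AMP response element, on either strand (CGTCA on the other), the CArG box, and the EGR site GCGNGGGCG on either strand.
Fos, chr12:85473640-85473889, plus strand: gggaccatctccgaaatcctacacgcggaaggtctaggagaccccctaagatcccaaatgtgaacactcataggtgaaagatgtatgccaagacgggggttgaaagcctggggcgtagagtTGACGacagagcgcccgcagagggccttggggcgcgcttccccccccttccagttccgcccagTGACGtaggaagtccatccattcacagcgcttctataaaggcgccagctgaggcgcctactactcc
Fosb, chr7:19310046-19310295, minus strand: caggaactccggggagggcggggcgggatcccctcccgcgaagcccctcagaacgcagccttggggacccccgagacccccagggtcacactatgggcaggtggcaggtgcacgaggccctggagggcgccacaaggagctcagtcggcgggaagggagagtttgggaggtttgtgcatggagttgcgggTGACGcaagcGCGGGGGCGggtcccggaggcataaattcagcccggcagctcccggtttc
Egr2, chr10:67537619-67537868, plus strand: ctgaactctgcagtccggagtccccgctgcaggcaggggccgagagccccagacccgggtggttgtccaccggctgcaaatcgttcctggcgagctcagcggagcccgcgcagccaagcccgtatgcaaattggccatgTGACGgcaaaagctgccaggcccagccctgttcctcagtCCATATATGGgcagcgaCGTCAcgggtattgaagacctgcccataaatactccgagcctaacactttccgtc
Nr4a1, chr15:101266596-101266845, plus strand: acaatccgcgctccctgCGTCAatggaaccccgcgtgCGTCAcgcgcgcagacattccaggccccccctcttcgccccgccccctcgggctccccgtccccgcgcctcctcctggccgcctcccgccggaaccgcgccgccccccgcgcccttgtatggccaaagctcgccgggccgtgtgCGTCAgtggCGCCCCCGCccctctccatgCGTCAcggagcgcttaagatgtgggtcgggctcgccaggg
TGACG was found in at least 1 window of all 7 genes, against 17.8% of 32851 promoter windows of the same length. The Fos window held 2 such matches, the Fosb window 1, the printed Egr2 window 2 and the Nr4a1 window 4. At least 2 matches were present in 3.9% of all windows. Egr2 had 5 windows and the other genes 1 each, so Egr2 had more chances of a match. In the printed Egr2 window a CArG box lies between both TGACG matches, and 1.47% of all windows held a CArG box. Egr2 window 1 had neither motif, and window 2 had a CArG box without TGACG. Windows 4 and 5 overlap the printed one and hold the same sites. GCGNGGGCG was found in Fosb and Nr4a1, and in 4.7% of all windows. The full element TGACGTCA was in none of the 7 genes (1.55% of all windows), nor was the AP-1 site TGANTCA (6.75%). TGACG lies inside TGACGTCA, so those searches overlap, and a match is a description of the letters only.

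Total counts ranged from 8.72 to 12.1 M (10⁶ counts) in the prefrontal cortex, from 8.28 to 12 M in the striatum and from 7.38 to 10.2 M in the liver. In the striatum the 6 mg/kg libraries held 8.55 to 9.2 M and the vehicle libraries 10.1 to 10.5 M, without overlap. Defining markers of each labelled tissue were present. The summed level of 5 cortical excitatory neuron markers was 1350 to 2350 CPM (counts per 10⁶ of the library's effective total, after scaling by the trimmed mean of M values) in the prefrontal cortex and 63.6 to 1700 CPM in the striatum. That of 6 striatal projection neuron markers was 2120 to 5280 CPM in the striatum and 728 to 2330 CPM in the prefrontal cortex. The striatal punches therefore varied in their cortical marker content, and the cortical punches in their striatal marker content. The ranges of both lists overlapped between the regions. In every liver library 4 hepatocyte markers summed to at least 76500 CPM.

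All 10 genes were detected in every brain library, and Egr1 had the highest level per transcript length in both regions when averaged over all doses. Levels between genes were compared as CPM per kb of the longest GENCODE vM21 transcript. Cortical Egr1, a zinc finger factor of the EGR family, averaged 98.5 ± 23.2 CPM per kb (SD, n = 21). Next came Arc at 85.1 ± 44.3, Junb at 56 ± 24.5, Nr4a1 at 45.8 ± 18.7 and Egr4 at 37.5 ± 13.3 CPM per kb. A lower tier held Fos at 14.2 ± 5.65, Ier2 at 8.15 ± 3.33, Fosb at 6.52 ± 2.58, Egr2 at 4.22 ± 2.23 and Npas4 at 3.76 ± 1.46 CPM per kb. The order of Egr1 and Arc was not a separation: in the 4 cortical vehicle libraries they stood at 99.1 ± 7.86 and 97.7 ± 14.8 CPM per kb. Within each tier the ranges of mean ± SD of neighbours overlapped, whereas those of Egr4 and Fos did not.

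The striatum had the same 2 tiers. Egr1 averaged 74.0 ± 24.9 CPM per kb (SD, n = 21), Junb 53.9 ± 18.4, Arc 52.2 ± 23.1, Nr4a1 45.1 ± 21.3 and Egr4 42.3 ± 14.9. Fos followed at 11 ± 5.13, Fosb at 6.48 ± 2.53, Ier2 at 4.85 ± 1.54, Egr2 at 4.62 ± 2.28 and Npas4 at 3.09 ± 1.31 CPM per kb. Among these neighbours, Egr4 and Fos were the only pair whose ranges of mean ± SD did not overlap.

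The members varied more between libraries than most genes did. Over the 21 cortical libraries the coefficient of variation ran from 23.6% for Egr1 to 52.8% for Egr2, against a median of 16.0% over all 14838 genes tested there. Arc spanned 34.69 to 590.2 CPM, a 17.0-fold range. In the striatum the coefficients ran from 31.7% for Ier2 to 49.4% for Egr2, which spanned 2.0 to 26.38 CPM, against a median of 18.0% over 15118 genes. Between 75.1% and 97.5% of tested genes varied less than a given member in the prefrontal cortex, and between 83.2% and 94.7% in the striatum. These coefficients are pooled over the doses and so include differences between dose groups. The plot of brain levels by dose shows the spread within each group, which was wide for some groups and narrow for others.

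**Figure D1:**
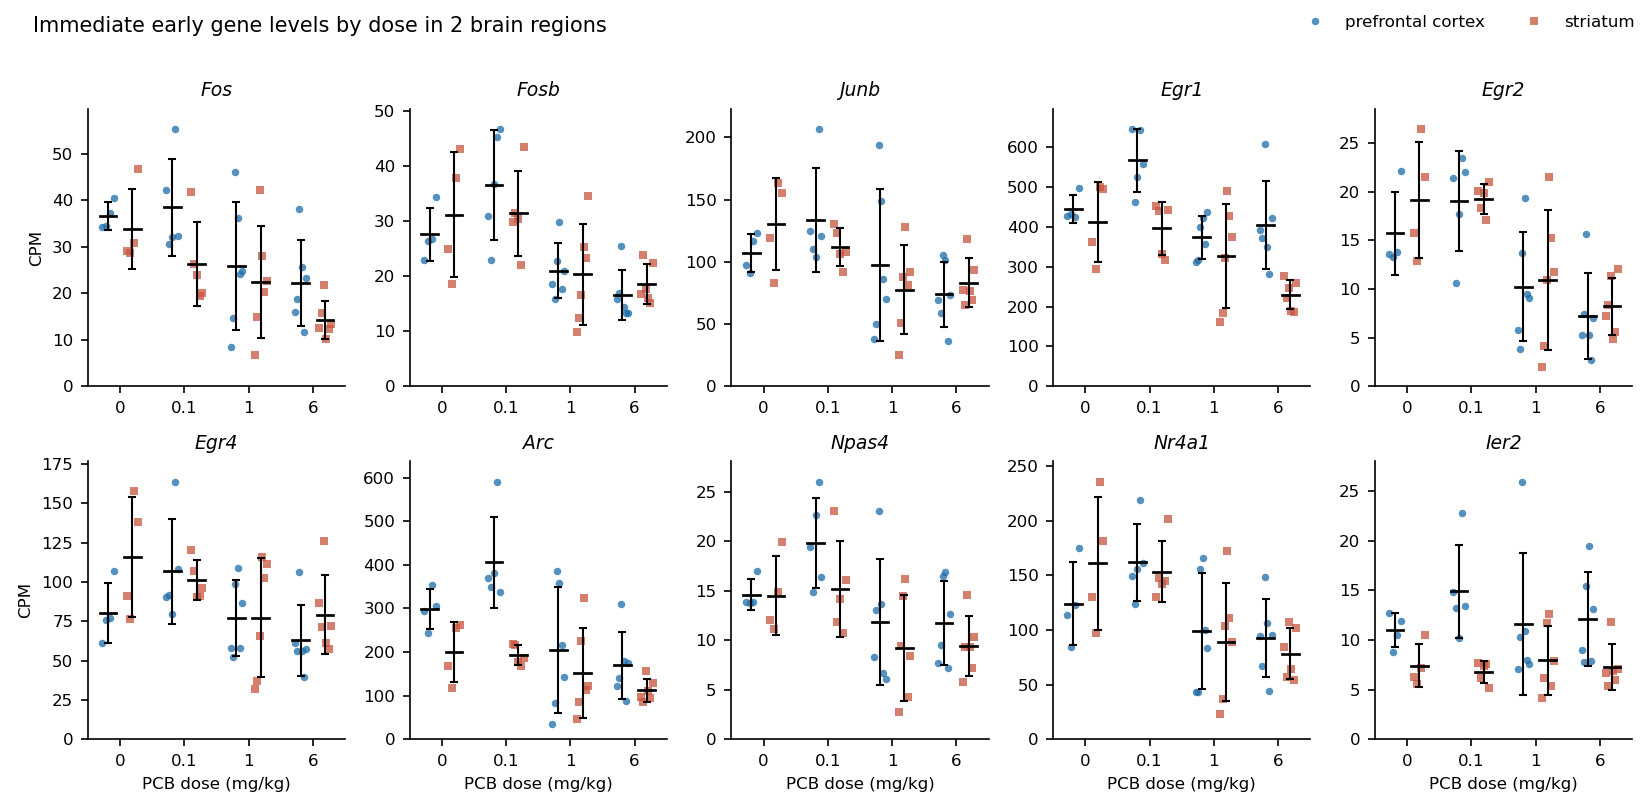
Level of each gene in CPM (vertical axis) by PCB dose in mg/kg (horizontal axis) in prefrontal cortex (circles) and striatum (squares). Points are libraries, horizontal bars are group means and error bars are 1 SD. In the striatum the 6 mg/kg libraries of Fos, Egr1 and Egr2 all lie under the vehicle libraries.

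In the striatum, all 10 members had a lower fitted level at 6 mg/kg than in vehicle, and none passed the adjusted threshold. The comparison asked whether the highest dose altered these transcripts. By edgeR's quasi-likelihood test with Benjamini-Hochberg adjustment over 15118 genes, 0 of 10 members passed an adjusted p of 0.05, as did 0.0% of all genes, and DESeq2 also called 0. At an unadjusted p under 0.05, 7 of 10 members were lower, against 8.24% of all genes. The median log2 fold change of the 10 was -0.79, against 0.010 over all genes tested. Fos, Egr1 and Egr2 were the members whose groups did not overlap, a pattern that 1.91% of all genes had in this direction.

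Among the AP-1 subunits, Fos showed the widest gap. Fos encodes a leucine zipper protein that pairs with Jun proteins. Striatal Fos was at 46.66, 30.72, 28.71 and 29.05 CPM in the vehicle animals 8, 7, 4 and 3. It was at 20.17, 19.37, 23.94, 26.35 and 41.8 CPM at 0.1 mg/kg, from 6.823 to 42.14 CPM with a median of 21.54 at 1 mg/kg, and from 10.19 to 21.86 CPM with a median of 12.91 at 6 mg/kg. Every 6 mg/kg library lay under every vehicle library, and the 1 mg/kg libraries ran from below the 6 mg/kg range into that of the vehicle. The group means were 33.8 ± 8.63 CPM in vehicle and 14.3 ± 4.09 CPM at the highest dose (SD, n = 4 and 6), a log2 fold change of -1.24 (SE 0.328, adjusted p 0.208).

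Fosb, whose full-length and truncated products also pair with Jun proteins, was at 43.07, 37.84, 18.5 and 24.94 CPM in vehicle. At 6 mg/kg it ran from 15.07 to 23.84 CPM. The groups overlapped through vehicle animal 4, and the log2 fold change was -0.74 (SE 0.278, adjusted p 0.234). Junb, a Jun family partner, was at 155.3, 163.4, 83.33 and 119.5 CPM in vehicle and from 65.04 to 118.4 CPM at 6 mg/kg. Its groups overlapped as well, with a log2 fold change of -0.65 (SE 0.289, adjusted p 0.291).

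Of the EGR zinc finger factors, Egr1 and Egr2 separated the groups and Egr4 did not. Striatal Egr1 was at 494.4, 498.6, 294.7 and 362.4 CPM in vehicle, at 441.2, 316.4, 331.2, 440.6 and 452.5 CPM at 0.1 mg/kg, from 162.3 to 489.1 CPM with a median of 348.1 at 1 mg/kg, and from 187.2 to 277.3 CPM with a median of 234.6 at 6 mg/kg. The highest dose lay under all vehicle and all 0.1 mg/kg libraries. Its log2 fold change against vehicle was -0.84 (SE 0.238, adjusted p 0.208).

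Egr2, best known for its role in myelinating Schwann cells and also induced by activity in neurons, was at 21.44, 26.38, 12.91 and 15.77 CPM in vehicle. It was at 20.94, 17.08, 19.88, 18.29 and 20.04 CPM at 0.1 mg/kg, the tightest of the groups. It ran from 2.0 to 21.45 CPM at 1 mg/kg (median 11.29) and from 4.822 to 12.05 CPM at 6 mg/kg (median 7.793). Again no 6 mg/kg library reached the lowest vehicle library, and the log2 fold change was -1.22 (SE 0.393, adjusted p 0.208). Egr4 averaged 115.8 ± 38.4 CPM over the 4 vehicle libraries (mean ± SD) and 79.1 ± 25 CPM over the 6 libraries of the highest dose, with overlapping groups and a log2 fold change of -0.55 (SE 0.317).

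Arc encodes a cytoskeleton-associated protein that controls the removal of AMPA receptors from synapses. In the striatum Arc was at 261, 254.4, 116.5 and 168.3 CPM in vehicle and from 84.3 to 156.6 CPM at 6 mg/kg, with overlap through vehicle animal 4 and a log2 fold change of -0.84 (SE 0.373, adjusted p 0.291). Nr4a1, an orphan nuclear receptor, was at 181.2, 235.5, 96.91 and 130.2 CPM in vehicle and from 54.24 to 107.6 CPM at 6 mg/kg. It had a log2 fold change of -1.04 (SE 0.39, adjusted p 0.235), and its groups also overlapped through animal 4. Fosb, Junb, Arc and Nr4a1 each overlapped through that animal alone.

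Npas4, a neuronal bHLH-PAS factor induced by calcium entry, averaged 14.5 ± 3.95 CPM in vehicle and 9.40 ± 3.05 CPM at the highest dose (SD, n = 4 and 6). The fitted log2 difference was -0.63 (SE 0.35). Ier2, a small nuclear protein of the rapid response, had the smallest difference of the 10. It averaged 7.39 ± 2.15 CPM in vehicle and 7.29 ± 2.32 CPM at the highest dose (SD, n = 4 and 6), with a log2 fold change of -0.02 and a 95% interval of -0.58 to 0.54. That interval includes the value found for Egr4, so it does not show that Ier2 was unaltered.

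The direction in the striatum held in most refits, while the number of members under an unadjusted p of 0.05 depended on single animals. Leaving out each of the 10 animals of the 2 groups in turn gave 3 to 9 such members. The count was 3 when vehicle animal 7 was removed, 4 for vehicle animal 8 and 9 for animal 54 of the 6 mg/kg group, and 9 or 10 members with a negative fold change. Vehicle animal 4 had the lowest striatal level of its group in 10 of 10 members. Marker levels moved as well. The summed level of 4 general neuron markers was 2510 to 3120 CPM in vehicle and 2260 to 2590 CPM at 6 mg/kg, and that of 5 oligodendrocyte markers was 4000 to 6090 and 6060 to 8570 CPM. Cortical excitatory markers ranged from 73.8 to 1150 CPM in vehicle and from 63.6 to 460 CPM at 6 mg/kg. Striatal projection neuron markers, a list of 6 genes, lay the other way in their medians, at 3220 CPM in vehicle (2270 to 5150) and 4100 CPM at 6 mg/kg (3020 to 5280). The medians of 3 inhibitory neuron markers were 1910 CPM in vehicle (1760 to 2140) and 1870 CPM at 6 mg/kg (1550 to 2060). All of these ranges overlapped between the groups, with the oligodendrocyte ranges meeting only at their ends. The part of these markers, and of the lower totals at 6 mg/kg, in the result was not tested. In bulk tissue, fewer cells of a type and less RNA per cell cannot be told apart.

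The median striatal difference was smaller at the lower doses. These comparisons share the 4 vehicle libraries and are not independent. At 1 mg/kg 0 of 10 members passed (0.0% of all genes; 0 with DESeq2), 9 had a negative fold change, and the median was -0.60. At that dose 4 members had an unadjusted p under 0.05, all lower, against 3.54% of all genes in that direction: Junb at -0.75, Nr4a1 at -0.85, Egr2 at -0.81 and Fosb at -0.61 on the log2 scale. That count was 0 without vehicle animal 7 or 8, 1 without animal 41 or 42 and 8 without animal 46. It was also 0 in a fit of those doses alone and when library effects of GC content and transcript length were removed by an offset, an alternative chosen after seeing the data. Summed striatal projection neuron markers had medians of 3220 CPM in vehicle (2270 to 5150) and 2370 CPM at 1 mg/kg (2120 to 4280). Those of general neuron markers were 2710 (2510 to 3120) and 3200 CPM (2710 to 3780). The part of these markers in the result was not tested. At 0.1 mg/kg 0 passed (0.0% of all genes; 0 with DESeq2), 0 had an unadjusted p under 0.05 (2.53% of all genes), and the median was -0.06. Over dose rank 0 slopes passed with edgeR (0.0% of all genes), 2 with DESeq2 (Fos and Egr1), which called 22 of 15118 genes, and 3 over mg/kg in place of rank (Fos, Egr1 and Egr2), where edgeR called 1862 of 15118. At an unadjusted p under 0.05, 9 members had a negative slope (6.0% of all genes). Fos had the smallest p, with a slope of -0.40 per dose step (SE 0.1, adjusted p 0.243), Egr2 had the steepest slope, at -0.47, and Ier2 was the exception at 0.02.

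Against 0.1 mg/kg, a larger reference group, 9 of 10 members had a lower fitted level in the 6 mg/kg striatum. The log2 fold change of Fos was -0.88, against -1.24 relative to vehicle, and that of Ier2 was 0.11. By edgeR 0 of 10 members passed, against 2.91% of all genes, and 7 members had an unadjusted p under 0.05 with a lower level, against 10.7% of all genes. Without animal 23 of the 0.1 mg/kg group the latter count was 4. Egr1 had a log2 fold change of -0.78 (SE 0.226, adjusted p 0.0578) and Egr2 of -1.23 (SE 0.375, adjusted p 0.0706). The groups of Egr1, Egr2, Arc and Nr4a1 did not overlap, a pattern in this direction of 3.01% of all genes. This outcome depended on the fit: DESeq2 called 3 members (Egr1, Egr2 and Fosb), a fit with 1 surrogate variable called the same 3 genes, and a fit on the libraries of those doses alone called 6 (Fos, Fosb, Egr1, Egr2, Arc and Nr4a1). Of all genes, DESeq2 called 1104 of 15118, the surrogate variable fit 1226 of 15118 and the fit on those doses 668 of 14606. The summed oligodendrocyte markers were 4250 to 6470 CPM at 0.1 mg/kg. Endothelial markers (3 genes) were 122 to 130 CPM at 0.1 mg/kg and 131 to 153 CPM at 6 mg/kg, and the 3 immune markers listed were 7.54 to 10.6 and 10.7 to 15.2 CPM, both without overlap. The part of these markers in the result was not tested.

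**Figure D2:**
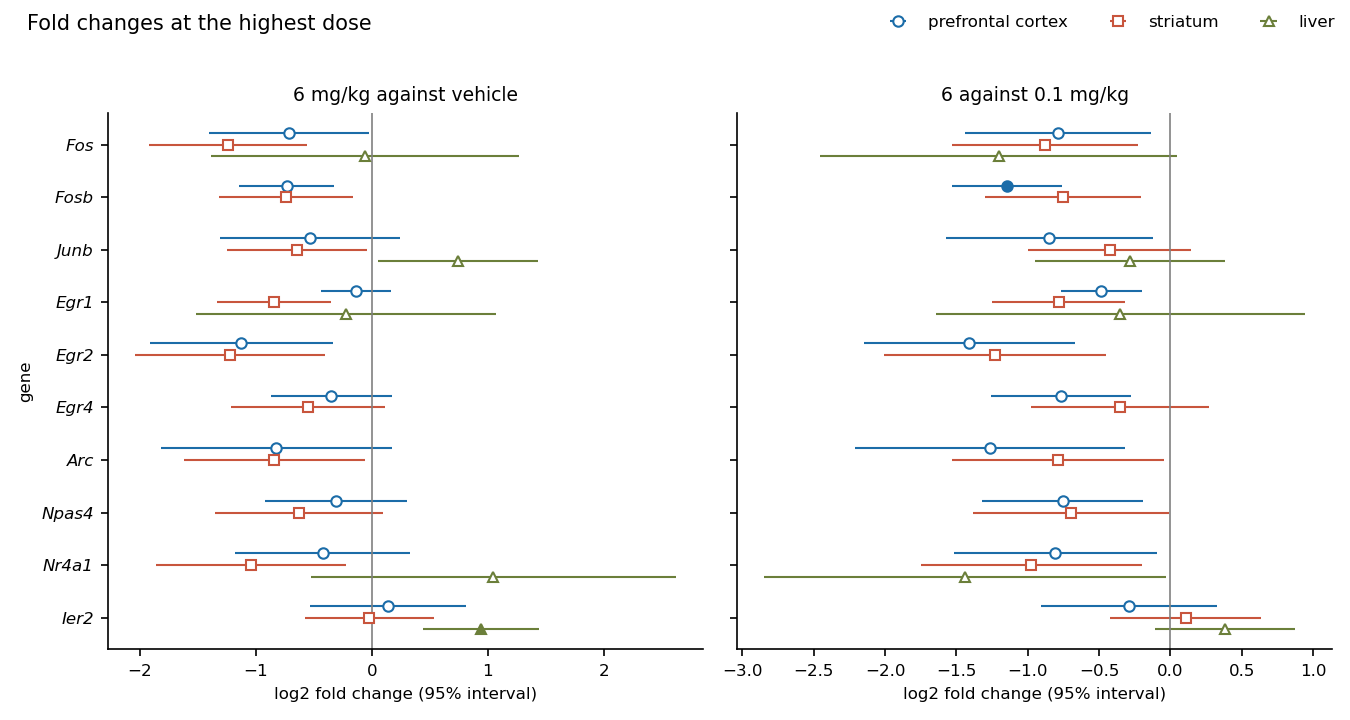
Log2 fold change (horizontal axis) of each gene at 6 mg/kg against vehicle (left) and against 0.1 mg/kg (right) in prefrontal cortex (circles), striatum (squares) and liver (triangles), with 95% intervals from edgeR. Filled symbols passed an adjusted p of 0.05, which were Fosb in the prefrontal cortex at right and Ier2 in the liver at left.

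In the prefrontal cortex Fosb fell at 6 mg/kg relative to 0.1 mg/kg, and no member passed against vehicle. Cortical Fosb was at 34.24, 26.79, 26.29 and 22.92 CPM in vehicle and at 46.59, 45.21, 36.74, 22.94 and 30.91 CPM in the animals 29, 28, 25, 24 and 23 of the 0.1 mg/kg group. It ran from 15.91 to 29.85 CPM at 1 mg/kg, with a median of 19.78, and from 13.38 to 25.39 CPM at 6 mg/kg, with a median of 15.13. The 0.1 mg/kg group held the highest libraries, and 5 of 6 libraries at 6 mg/kg lay under all of them, the exception being animal 54. The mean fell from 36.5 ± 9.91 to 16.6 ± 4.55 CPM (SD, n = 5 and 6), which is a log2 fold change of -1.14 (SE 0.187, adjusted p 0.00894).

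Fosb was the 1 of 10 members that passed in this comparison, where 0.108% of all genes passed. The call was lost without animal 28 or 29 of the 0.1 mg/kg group, without animal 58 of the 6 mg/kg group and in a fit on those 2 groups alone. Over the left-out animals the Fosb log2 fold change ran from -1.30 to -1.03 and the adjusted p from 0.000789 to 0.0746. Without animal 54, 4 members passed (Fosb, Egr1, Egr2 and Egr4), among 44 of 14836 genes. DESeq2 called 2 (Fosb and Egr2), among 129 of 14838 genes.

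The other members lay in the same direction in that comparison. All 10 log2 fold changes were negative, with a median of -0.80 against 0.0023 over all genes, and 9 of 10 had an unadjusted p under 0.05, against 6.17% of all genes in that direction. Egr2 had a log2 fold change of -1.41 (adjusted p 0.124) and Egr1 of -0.49 (adjusted p 0.167). Cortical Arc was at 336.6, 590.2, 382.4, 349.2 and 369.9 CPM at 0.1 mg/kg and from 86.96 to 310.9 CPM at 6 mg/kg, with a median of 157.9. Those Arc groups did not overlap, as was the case for 0.842% of all genes in that direction. The Arc means were 405.7 ± 104.7 and 169.0 ± 77.6 CPM (SD, n = 5 and 6), with a log2 fold change of -1.26 (SE 0.45, adjusted p 0.341). Summed cortical excitatory markers were 1650 to 2260 CPM at 0.1 mg/kg and 1350 to 1980 CPM at 6 mg/kg, general neuron markers 4240 to 5250 and 4470 to 5210 CPM, and their part in the result was not tested.

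Against vehicle, 6 mg/kg gave 9 negative fold changes of 10 in the prefrontal cortex, with 0 members passing by edgeR or DESeq2 (0.0% of all genes) and a median of -0.48. At an unadjusted p under 0.05 there were 3 members, all lower, against 4.99% of all genes. The count was 6 without animal 54 and 2 without any other of the 10 animals. They were Fosb at -0.73 (SE 0.2, adjusted p 0.28), Egr2 at -1.13 (SE 0.38, adjusted p 0.382) and Fos at -0.71 (SE 0.332, adjusted p 0.517). Cortical Egr2 was at 22.14, 13.83, 13.25 and 13.58 CPM in vehicle, at 22.01, 23.49, 17.68, 10.66 and 21.38 CPM at 0.1 mg/kg, from 3.825 to 19.32 CPM at 1 mg/kg and from 2.742 to 15.62 CPM at 6 mg/kg. Of the 6 libraries at the highest dose, 5 lay under all vehicle libraries, and the groups overlapped. Summed cortical excitatory markers had medians of 2150 CPM in vehicle (1830 to 2270) and 1880 CPM at 6 mg/kg (1350 to 1980). Those of oligodendrocyte markers were 2390 (2050 to 3100) and 2880 CPM (2790 to 3300). General neuron markers had medians of 4910 and 5080 CPM. The part of these markers in the result was not tested.

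Cortical Fos was at 40.51, 37.16, 34.38 and 34.16 CPM in vehicle, which was a narrow range. It widened to between 8.479 and 46.07 CPM at 1 mg/kg and between 11.62 and 38.2 CPM at 6 mg/kg. Cortical Egr1 was at 497, 423.5, 430.8 and 426.1 CPM in vehicle and at 557.2, 642.8, 523.9, 462.2 and 644 CPM at 0.1 mg/kg. Of the 5 libraries at 0.1 mg/kg, 4 exceeded every vehicle library.

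At 0.1 mg/kg all 10 members had a positive fold change against vehicle in the prefrontal cortex, with a median of 0.40. None passed by edgeR or DESeq2 (0.0% of all genes), and 1 had an unadjusted p under 0.05 (Egr1, log2 fold change 0.35), where 3.4% of all genes did so in that direction. That count was 0 without animal 28 or vehicle animal 3, 4 or 7, 3 without vehicle animal 8 and 5 in a fit of those doses alone. With 1 surrogate variable, 2 of the 10 fold changes were negative and the count was 0. At 1 mg/kg 9 were negative with 0 passing by edgeR or DESeq2 and 0 under an unadjusted p of 0.05, where 8.29% of all genes were. That count was 2, both lower, without animal 45 or 46 and in a fit of those doses alone, and the number of negative values ran from 7 to 10 over the left-out animals. Over dose rank all 10 slopes were negative and 0 passed (0.0202% of all genes), 5 had an unadjusted p under 0.05 (5.58% of all genes), and DESeq2 called Fosb, among 82 of 14838 genes. The count of 5 became 9 without animal 54 of the highest dose and 8 without vehicle animal 4, and lay between 4 and 7 without any other animal. The Fosb slope was -0.34 per dose step (adjusted p 0.114). The values against vehicle and against 0.1 mg/kg share the 6 mg/kg libraries, so they do not count as separate evidence.

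The effect of 6 mg/kg did not pass a test of difference between the brain regions for any member. All 10 interaction terms (the striatal minus the cortical log2 fold change) were negative, 0 passed by edgeR or DESeq2 (0.0% of all genes), and 1 had an unadjusted p under 0.05, against 4.08% of all genes in that direction. With the animal number as a replicate block 8 terms were negative and 2 had an unadjusted p under 0.05. Without vehicle animal 7 in both regions the unblocked fit gave 6 negative terms and 0 under that p, and without vehicle animal 8 or animal 54 it gave 7 and 0. The term under that p with all animals and no block was that of Egr1, at -0.71 (95% interval -1.32 to -0.11, adjusted p 0.724). For Fosb the interaction was -0.01 with an interval of -0.75 to 0.72, and for Arc it was -0.03 with an interval of -1.28 to 1.23. Intervals of this width leave sizeable differences between the regions undetectable with these libraries.

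In level, 4 members were lower in the striatum than in the prefrontal cortex over all 21 animals, in a joint fit that included dose. By edgeR 56.3% of all genes differed between the regions and 28.2% were lower in the striatum, so a count of 4 of 10 is near what all genes gave. Ier2 averaged 12.8 ± 5.2 CPM in the prefrontal cortex and 7.14 ± 2.27 CPM in the striatum (SD, n = 21), a log2 difference of -0.84 (SE 0.153, adjusted p 1e-05). Egr1 averaged 456.4 ± 107.8 and 321.2 ± 108.6 CPM, with a log2 difference of -0.50 (SE 0.102, adjusted p 5.69e-05). Arc differed by -0.76 (SE 0.213, adjusted p 0.00264) and Fos by -0.47 (SE 0.17, adjusted p 0.0186). The remaining 6 did not pass, with differences from -0.36 for Npas4 to 0.10 for Egr4. With the animal number as a replicate block 5 passed, Npas4 being added at an adjusted p of 0.0023. The share of all genes in that fit is not given here, so the 5 cannot be set against it. In the 8 vehicle libraries alone only Ier2 passed, where 3230 of 14515 genes did.

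Levels of the members varied together from library to library. After subtraction of dose group means from log2 CPM, all 45 pairs of members correlated positively in each region. The median Pearson r was 0.724 in the prefrontal cortex, while the striatum gave 0.779, and r exceeded 0.5 for 38 and 40 of the 45 pairs. Of all gene pairs, 8.77% and 7.57% exceeded that value. Npas4 and Fosb were the least coupled in the prefrontal cortex, with median r values of 0.554 and 0.556 to the other members, and Nr4a1 the most, at 0.806. In the striatum Npas4 was again the least coupled at 0.589, and Junb the most at 0.877. These are descriptions over 21 libraries that share their scaling and their dissection, and they carry no test.

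The same animals were often at the extreme of their group for many members. In the striatum animal 41 had the lowest level of the 1 mg/kg group in 10 of 10 members and animal 46 the highest in 8. Among cortical libraries animal 41 was lowest in 5 and animal 42 in 4. At 6 mg/kg animal 54 was highest in 8 cortical and 7 striatal comparisons of 10, and animal 56 had the lowest cortical level in 9 members. At 0.1 mg/kg animal 28 was highest in 8 members in the prefrontal cortex and lowest in 7 in the striatum. The striatal libraries of animals 41 and 4 had summed cortical excitatory markers of 227 and 73.8 CPM, at or near the low end of their groups, and the part of that in their levels was not tested.

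Animals with a high level in 1 region tended to have a high level in the other, although no member passed adjustment over all genes. The correlation between both regions of the same animal was computed for 14617 genes over 21 animals, with dose group means subtracted and a two-sided permutation test. Arc gave r = 0.851 (permutation p 0.00028, adjusted p 0.124, rho = 0.726), Nr4a1 r = 0.823 (permutation p 0.00032, adjusted p 0.126, rho = 0.788) and Fos r = 0.761 (permutation p 0.00187, adjusted p 0.314, rho = 0.54). Fosb gave the weakest value, r = 0.287 (permutation p 0.218, rho = 0.375), and the other 6 lay between 0.468 for Egr1 and 0.675 for Egr2. Of the 10 members 0 passed, against 0.0616% of all genes, and 9 had an unadjusted p under 0.05, against 7.61% of all genes with a positive r. The median r over all genes was 0.146.

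Without the 2 animals farthest from the cortical median, r was 0.72 for Arc, 0.734 for Nr4a1 and 0.484 for Fos. Animals on the same side of their group mean in both regions numbered 17 of 21 for Arc, 18 for Nr4a1 and Egr2, and 13 for Fosb. Within dose groups the values differed widely. For Arc r was 0.947 over the 6 animals at 1 mg/kg and 0.846 over the 6 at 6 mg/kg, but -0.659 over the 5 at 0.1 mg/kg. Without subtraction of the dose group means 4 members passed (Fos, Egr2, Arc and Nr4a1), among 37 of 14617 genes, each with a permutation p of 1e-05, the smallest that 100000 draws can give, and an adjusted p of 0.0112. That version also contains the differences between doses.

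**Figure D3:**
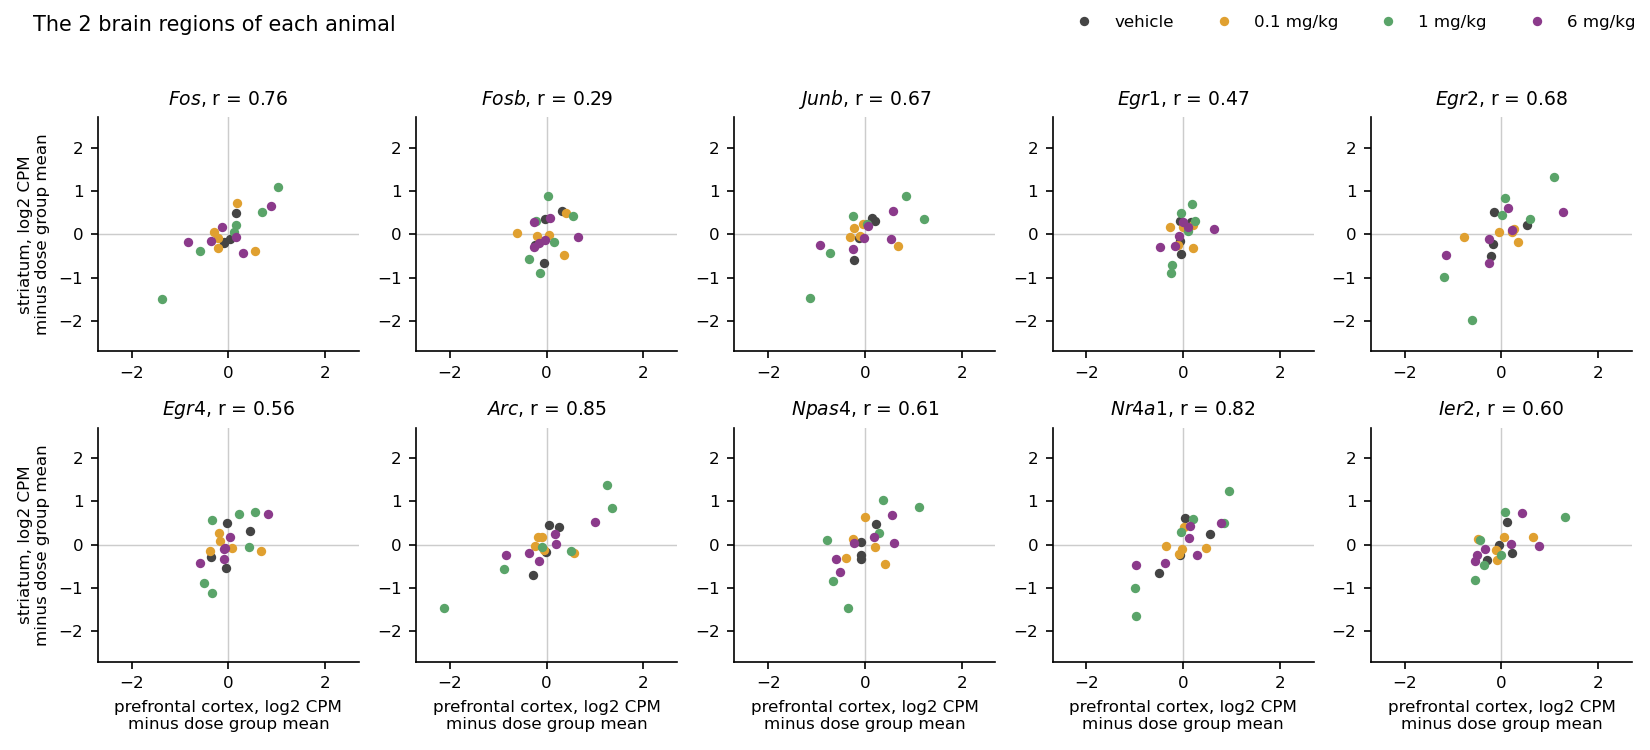
Deviation of each animal from its dose group mean in log2 CPM, prefrontal cortex on the horizontal axis and striatum on the vertical axis, for each gene; points are 21 animals coloured by dose and r is Pearson's. Arc and Nr4a1 line up most closely along the diagonal, and the 1 mg/kg animals span the widest range on the striatal axis for every gene. On the cortical axis that does not hold for Fosb, Egr1, Egr2 and Egr4.

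Genes outside the list whose library-to-library pattern was most like the members were named by a fixed rule, as the 5 with the highest r to the mean standardised level of the members. Among 14828 genes in the prefrontal cortex they were Dusp1 (r = 0.881), Dusp6 (0.837), Ier5l (0.829), Csrnp1 (0.824) and Rab40c (0.821). Among 15108 genes in the striatum they were Dusp6 (0.903), Dusp1 (0.900), Car7 (0.827), Nr4a3 (0.827) and Mybph (0.793). Dusp1 and Dusp6, which encode phosphatases that switch off MAP kinases, were therefore among the first 2 in both regions. Nr4a3 is a nuclear receptor related to Nr4a1, and Csrnp1 encodes a nuclear protein of the rapid response.

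The wider rapid response was followed through a list of 32 further genes, among them Jun, Fosl2, Nr4a3, Dusp1, Btg2 and Per1. At 6 mg/kg against vehicle 0 of 32 passed in either brain region by edgeR. In the striatum 28 had a negative fold change and 13 were lower at an unadjusted p under 0.05 (8.24% of all genes), with a median of -0.31. The prefrontal cortex had 28 negative values and 10 lower at that level (4.99% of all genes), again with a median of -0.31. Against 0.1 mg/kg, 1 gene of the list passed in the striatum, where 2.91% of all genes did: Fosl2, a Fos family member, fell by 1.23 on the log2 scale (SE 0.317, adjusted p 0.0432). The same comparison in the prefrontal cortex had 0 passing (0.108% of all genes), 30 were negative, 18 had an unadjusted p under 0.05 (6.17% of all genes were lower at that level) and the median was -0.48. Their medians were thus negative, as those of the members were.

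Genes that respond later to activity were followed through a list of 22, among them Bdnf, Nptx2, Homer1 and the MAP kinase phosphatases. Against vehicle, 0 passed at 6 mg/kg in either region by edgeR, with 7 lower at an unadjusted p under 0.05 in the striatum (8.24% of all genes, median -0.31) and 5 in the prefrontal cortex (4.99% of all genes, median -0.06). Against 0.1 mg/kg, 6 of 22 fell in the striatum, where 2.91% of all genes passed. Ptgs2, which encodes cyclooxygenase 2, had a log2 fold change of -1.49 (adjusted p 0.0365), and Inhba, an activin subunit, of -0.97 (adjusted p 0.0355). Dusp6 followed at -0.77, Dusp4 at -0.73, Pcsk1 at -0.68 and Homer1, a postsynaptic scaffold, at -0.54. Cortical levels of 2 of the 22 fell in that comparison (0.108% of all genes passed), Ptgs2 by 0.93 (adjusted p 0.0342) and Dusp4 by 0.89 (adjusted p 0.0353) on the log2 scale. The median of the 22 was -0.33 in the striatum and -0.28 in the prefrontal cortex.

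In the liver Ier2 rose with dose, and 5 of the members were close to the detection limit. Ier2 and Junb were the main members there, at 33.1 ± 10.9 and 21.7 ± 9.35 CPM per kb (SD, n = 20), followed by Egr1 at 2.0 ± 1.51, Nr4a1 at 1.29 ± 2.2 and Fos at 0.443 ± 0.392 CPM per kb. The ranges of mean ± SD of Ier2 and Junb overlapped, as did those of the last 3. Of the other members, Npas4 had 0 counts in 16 of 20 libraries, Egr4 in 13, Egr2 in 11, Fosb in 7 and Arc in 5, and their highest values were 0.469 CPM for Npas4 and 2.34 CPM for Arc. A count of 0 allows up to 3 counts, or 0.287 to 0.415 CPM in these libraries, and that limit covers counting error only.

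Liver Ier2 was at 41.81, 23.86, 34.43 and 28.76 CPM in vehicle and at 35.31, 31.19, 52.85 and 70.7 CPM at 0.1 mg/kg. It ran from 36.56 to 68.97 CPM at 1 mg/kg, with a median of 53, and from 41.71 to 83.78 CPM at 6 mg/kg, with a median of 61.44. At the highest dose 5 of 6 libraries exceeded every vehicle library, and the sixth, at 41.71 CPM, lay just under the highest vehicle value. The mean rose from 32.2 ± 7.72 to 61.9 ± 15.5 CPM (SD, n = 4 and 6), which is a log2 fold change of 0.94 (SE 0.243, adjusted p 0.0416). Ier2 was the 1 of 5 tested members that passed, where 2.8% of all genes passed and 1.8% were higher. Ier2 and Junb were higher at an unadjusted p under 0.05, as were 13.1% of all genes.

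The Ier2 slope over dose rank also passed, at 0.29 per dose step (SE 0.0755, adjusted p 0.0335), where 4.81% of all genes passed and 2.85% had a positive slope. Both calls were close to the threshold. The call against vehicle was lost when any of 7 animals was left out (3, 4 and 7 of vehicle, and 52, 53, 54 and 58 of 6 mg/kg), with a log2 fold change from 0.827 to 1.09 and an adjusted p from 0.0166 to 0.141. The slope was lost without those same animals and without 28 or 29 of the 0.1 mg/kg group, and also over mg/kg in place of rank. The same GC and length offset ended both calls, with 101 and 143 of 12968 genes passing, and a fit of only the vehicle and 6 mg/kg livers ended the call against vehicle, with 13 of 12413 genes passing. Summed markers of microglia and other macrophages (Cx3cr1, P2ry12, Tmem119 and Csf1r) were 31.9 to 41.4 CPM in vehicle livers and 43.8 to 71.4 CPM at 6 mg/kg, without overlap. Their medians over the doses were 35.8, 43.2, 46.1 and 53.8 CPM, and their part in the Ier2 result was not tested. The other marker lists overlapped between these groups, hepatocyte markers among them at 96200 to 115000 and 76500 to 128000 CPM. At 1 mg/kg 0 of 5 members passed by edgeR or DESeq2 (0.0% of all genes), and only Ier2 had an unadjusted p under 0.05 (5.14% of all genes in that direction), with a log2 fold change of 0.72 (adjusted p 0.508).

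Of the other liver members, Junb was at 36.33, 17.31, 30.98 and 17.63 CPM in vehicle and from 27.4 to 59.88 CPM at 6 mg/kg, with a median of 40.99. The groups overlapped, and the log2 fold change was 0.74 (SE 0.332, adjusted p 0.177). Nr4a1 was at 1.91, 1.76, 1.37 and 26.72 CPM at 0.1 mg/kg, so 1 animal (23) set the mean of that group. The log2 fold change of Nr4a1 between 6 and 0.1 mg/kg was -1.44 with that animal and 0.783 without it. At 0.1 mg/kg 0 of 5 members passed against vehicle (0.0154% of all genes; 0 with DESeq2), and 3 had an unadjusted p under 0.05 with a higher level (2.58% of all genes), a count that was 0 without animal 23. At 6 against 0.1 mg/kg 0 passed (0.0386% of all genes; 0 with DESeq2), and 1 had an unadjusted p under 0.05, Nr4a1, against 6.1% of all genes in that direction.

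**Figure D4:**
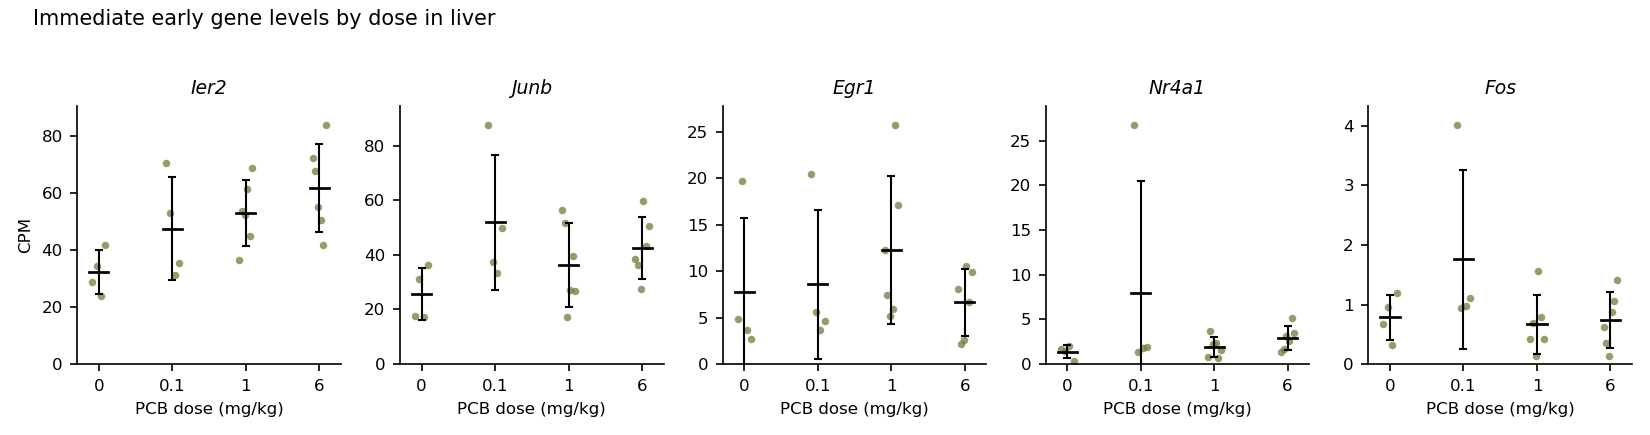
Level in CPM (vertical axis) by PCB dose in mg/kg (horizontal axis) of the 5 genes tested in the liver. Points are libraries, horizontal bars are group means and error bars are 1 SD, cut off at 0. Ier2 lies at 23.86 to 41.81 CPM in vehicle and 41.71 to 83.78 CPM at 6 mg/kg, and 1 library at 0.1 mg/kg stands apart in Egr1, Nr4a1 and Fos.

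Interaction terms, the liver minus the brain log2 fold change at 6 mg/kg, compared the liver with each brain region. They are read here for the 5 members that passed the liver filter. The other 5 entered the joint fits only through the brain libraries, and their terms rest on liver counts near the detection limit: Egr2 had 2 liver counts in all of vehicle and 12 at 6 mg/kg, 11 of them in 1 library. Against the striatum 0 of those 5 members passed by edgeR or DESeq2 (0.0928% of all genes), and all 5 terms were positive. Junb had the smallest p, with a term of 1.38 (95% interval 0.45 to 2.30, adjusted p 0.169), followed by Ier2 at 0.95 (95% interval 0.21 to 1.69, adjusted p 0.228). Against the prefrontal cortex 0 passed by edgeR or DESeq2 (2.53% of all genes), 4 of the 5 were positive, and Junb was at 1.26 (95% interval 0.22 to 2.30, adjusted p 0.164). At an unadjusted p under 0.05 there were 3 of the 5 against the striatum, Junb, Ier2 and Nr4a1 (7.74% of all genes in that direction), and 1 against the prefrontal cortex, Junb (9.88%). With the animal number as a replicate block these 4 terms kept an unadjusted p under 0.05. Without animal 56 the striatal count was 2, and without vehicle animal 7 the cortical count was 0.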

How the data were processed

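For every tissue the authors deposited read counts of genes with Entrez identifiers, all whole numbers. The submitters' processing notes name FastQC, HISAT2 and the mm10 build; the counting tool, the annotation, the use of strand and all versions are not given in the sources used here. TRIzol and RNeasy columns were used to extract the RNA, per the labels' protocols, which name both poly(A) capture and ribosomal RNA removal without saying which was used. Columns were matched to samples by title, and 0 columns were left unused. Symbols, positions and promoters came from RefSeq GRCm38.p6. The members, the gene lists and the tests were chosen with earlier results of these data known, so no list counts as independent support.

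Each count table was analysed by edgeR 4.0.16 under R 4.3.3 (filterByExpr, TMM scaling, all dose groups in a single robust quasi-likelihood fit), with Benjamini-Hochberg adjustment over all genes tested and a threshold of 0.05. Tests covered 12968 liver, 14838 prefrontal cortex and 15118 striatum genes. Log2 CPM used a prior count of 2. Correlations were tested with 100000 permutations, two-sided. All members are named. Of the other lists, up to 6 passing genes per list, tissue and contrast are named, by smallest p. The tests were also run on simulated data, with an outcome that is not given here.

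Chi-square tests between libraries of a group gave at least 12.9 (liver), 4.84 (prefrontal cortex) and 2.94 (striatum) per degree of freedom, so each library counted as 1 replicate. Same-numbered libraries of the brain regions had a mean correlation of deviations of 0.113 against -0.0233 for other numbers, and the number was used as an animal only where regions were compared.

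Alternatives were: DESeq2 1.42.0; median-ratio scaling; either no low-count filter or a required mean of 10 counts; fits restricted to the 2 groups compared; 1 surrogate variable (sva 3.50.0); mg/kg in place of dose rank; animal as a block; vehicle libraries alone for the level; correlations without centring; and each animal left out in turn. An offset for transcript length and GC content was chosen after seeing the data. Python 3.11.15, NumPy 2.4.6, pandas 2.3.3 and matplotlib 3.10.9 were used for correlations and figures.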

Additional observations from a re-analysis of the deposited data

Results flagged for a closer look

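In 16 of 100 sets of libraries (a member in a dose group of a tissue), 1 library lay far from the others of its group by Dixon's criterion, and chance gives about 5 at 1 in 20. All 16 were the highest of their group. The sets are not independent, since several come from the same library.

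In the liver, animal 23 of the 0.1 mg/kg group had Fos at 4.008 CPM (the others 0.9457 to 1.106), Egr1 at 20.49 CPM (3.618 to 5.569) and Nr4a1 at 26.72 CPM (1.366 to 1.911). Vehicle animal 4 had liver Egr1 at 19.7 CPM, where the others had 2.74 to 4.842 CPM.

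In the prefrontal cortex, animal 54 of the 6 mg/kg group had Fosb at 25.39 CPM (the others 13.38 to 17.02), Egr2 at 15.62 CPM (2.742 to 7.392) and Egr4 at 106.1 CPM (39.59 to 61.42). Animal 28 at 0.1 mg/kg had Junb at 206.4 CPM (103.7 to 125.0) and Arc at 590.2 CPM (336.6 to 382.4). Vehicle animal 8 had Egr1 at 497.0 CPM (423.5 to 430.8), Egr2 at 22.14 CPM (13.25 to 13.83) and Npas4 at 17.0 CPM (13.77 to 13.84). Animal 45 at 1 mg/kg had Ier2 at 25.92 CPM (7.047 to 10.89).

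In the striatum, vehicle animal 8 had Fos at 46.66 CPM (the others 28.71 to 30.72), animal 29 at 0.1 mg/kg had Nr4a1 at 201.7 CPM (130.5 to 147.7), and animal 54 at 6 mg/kg had Ier2 at 11.85 CPM (5.373 to 7.087). Animal 54 was thus far from its group in both brain regions.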

How the results depend on the processing

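Counts of members that pass are given here where they changed. In the prefrontal cortex at 6 against 0.1 mg/kg, 1 passed, against 2 with DESeq2 (129 of 14838 genes), 0 with only the 2 groups compared and 0 to 4 when animals were left out. The cortical slope gave 0, and 1 with DESeq2 (82 genes). In the striatum at 6 against 0.1 mg/kg, 0 passed, against 3 with 1 surrogate variable (1226 of 15118 genes), 3 with DESeq2 (1104) and 6 with only the 2 groups compared (668 of 14606). The striatal slope gave 0, against 2 with DESeq2 (22 genes) and 3 over mg/kg (1862 genes). In the liver at 6 mg/kg 1 passed, against 0 with an offset for length and GC content (101 of 12968 genes), 0 with only the 2 groups compared (13 of 12413) and 0 to 1 with animals left out. The liver slope gave 1, against 0 with the offset (143 genes), 0 over mg/kg (483 genes) and 0 to 1 with animals left out. For the level between brain regions 4 passed, against 1 in the vehicle libraries alone (3230 of 14515 genes) and 3 to 5 with animals left out. The correlation between regions gave 0, and 4 without centring (37 of 14617 genes). Liver Nr4a1 at 6 against 0.1 mg/kg was -1.44 and ran from -1.79 to 0.783 with animals left out, reversing without animal 23. The cause of these changes was not tested, and some fits held fewer libraries. With the animal number as a replicate block, the level gave 5 members (the share of all genes is not given here), and the block changed no count of members passing in the interactions. At an unadjusted p under 0.05 it moved the interactions from 1 to 2 (striatum and prefrontal cortex), 2 to 1 (liver and prefrontal cortex) and 4 to 3 (liver and striatum), the term lost in both being that of Egr2, which failed the liver filter. The pairing rests on the titles' numbers: 12 of 21 brain pairs correlated over 0.1 in their deviations and 11 of 21 libraries correlated best with their own number. Between liver and either brain region 2 of 20 pairs correlated over 0.1, with mean r of 0.00635 (prefrontal cortex) and 0.0052 (striatum), and 4 and 8 of 20 were best with their own number.

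The alternatives were also read for single members, and for counts of members with a negative value or an unadjusted p under 0.05. Of these values 1941 were unchanged: members kept direction and side of the threshold, and counts stayed within a set factor. Among single members 28 lost a call, 31 gained one and 1 reversed. Another 100 values, all counts, moved beyond that factor, or to or from 0. Groups of 4 to 6 libraries limit what can be detected, and depth limits the 5 members near 0 in the liver.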

Other observations

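Factors and kinases upstream of the immediate early genes were followed through a list of 27, among them Srf, Creb1 and its coactivators, the Mef2 factors and the MAP kinases. At 6 mg/kg against vehicle 0 of 27 passed in either brain region by edgeR. At an unadjusted p under 0.05, 5 were lower in the prefrontal cortex (4.99% of all genes) and 7 in the striatum (8.24% of all genes), where 1 was higher, with medians of -0.09 and -0.05. Against 0.1 mg/kg 2 passed in the striatum, where 2.91% of all genes did. Crtc2, a coactivator of CREB, rose by 0.52 (adjusted p 0.0322) and Creb1 fell by 0.40 (adjusted p 0.0345) on the log2 scale. In the liver the slopes of 2 passed, a share near the 4.81% of all genes. They were Creb1 at -0.25 per dose step (adjusted p 0.0311) and Rps6ka4, a kinase of CREB and histone H3, at 0.20 (adjusted p 0.0433).

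In the liver, 1 of 29 tested genes of the wider rapid response passed at 6 mg/kg against vehicle, a share near the 2.8% of all genes. It was the pseudokinase gene Trib1, with a log2 fold change of 1.02. Of 15 tested later genes 2 passed in that comparison (2.8% of all genes), both lower: Crem at -0.80 (adjusted p 0.0333), a relative of CREB, and Nrn1 at -0.73 (adjusted p 0.0409). The effect at 6 mg/kg differed between the liver and the prefrontal cortex (2.53% of all genes) for 3 of the 32 rapid response genes in the joint fit, with interaction terms of 1.89 for Klf10, 1.53 for Csrnp1 and 1.48 for Trib1. Of the 22 later genes it differed for 1, Crem, at -0.98. Between the liver and the striatum (0.0928% of all genes) it differed for 1 of the 32, Trib1, with a term of 1.62, and for 0 of the 22 by edgeR. Of these lists 29 of the 32 and 15 of the 22 passed the liver filter, among them the genes named here. The others entered the joint fits only through the brain libraries.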
